A study of Homo sapiens with 8 samples.

Results

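The genes described here are the 10 regulators at the core of the RB and E2F switch of the cell cycle: E2F1, E2F2, E2F3, E2F7, E2F8, MYBL2, FOXM1, RB1, RBL1 and RBL2. They were chosen by name, as the rows of the authors' deposited expression table that carry these symbols, and make up 10 of 26443 rows with values. The cells were C4-2B, a descendant of the LNCaP prostate cancer line that grows without androgen. They were kept for 7 days with DMSO vehicle, with 10 uM ENZ, with 1 uM EPZ6438 (EPZ) or with the agents together (Combination, whose doses the labels do not give apart). ENZ commonly stands for enzalutamide, which blocks the androgen receptor, and EPZ6438, or tazemetostat, blocks the histone methyltransferase EZH2. Each group had 2 RNA sequencing libraries, and the study asked how the agents act together. The labels name no genetic change. Nor do they say whether a group's 2 libraries were grown apart, so p-values reflect just the spread of these libraries, which may be technical.

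E2F transcription factors switch on the genes of DNA replication when a cell enters S phase. In resting cells the pocket proteins RB, p107 and p130, the products of RB1, RBL1 and RBL2, hold E2F factors in check, and cyclin-dependent kinases release that hold by phosphorylating them. The MuvB complex joins p130 and a repressive E2F in the DREAM complex of quiescent cells, and joins B-MYB (the product of MYBL2) and then FOXM1 in dividing cells to activate genes of G2 and mitosis. Several regulators, E2F1 and RBL1 among them, are themselves E2F target genes.

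The fragments behind the FPKM values, estimated from the values themselves, ranged from about 15400000 to 24400000 per library. That scale rests on GENCODE gene lengths, while the annotation used for the FPKM is not known. Of 543 single-transcript genes used for it, 61.0% lay within 5% of their median. All 9 luminal prostate markers stood at a mean of 1 FPKM (fragments by gene length in kilobases and by library size) or more in every group, and their summed level was 1725 and 1765 FPKM in the DMSO libraries, 889 and 893 with ENZ, 4309 and 4358 with EPZ, and 1015 and 1039 with Combination. Over all libraries the summed levels of 3 basal, 3 leukocyte and 3 endothelial markers stayed at or under 0.184, 0.157 and 0.857 FPKM. The 3 neuroendocrine markers summed to 0.294 to 0.520 FPKM with DMSO and ENZ, 1.09 and 1.33 with EPZ, and 0.711 and 0.844 with Combination. The 4 fibroblast markers summed to 2.28 to 4.54 FPKM in the other libraries and to 10.8 FPKM in both Combination libraries. In each group just 1 of the 4 reached a mean of 1 FPKM, and COL1A2 was at 0 in both libraries. The part of those markers in the results was not tested.

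The sequences just upstream of the start sites are shown because several members carry E2F words there. RefSeq promoters (250 bases before and 50 after each start, GRCh38.p14, the same assembly as hg38) were matched by symbol for 8 of the 10 genes, E2F8 and FOXM1 having no entry. The window listed for RB1 lay inside the gene, away from its annotated first exon. Both strands were searched for the words TTCCCGC and TTCCCGG, for TTCGCGC and TTCGCGG, for TTGCCGC and TTGCCGG, and for TTGGCGC and TTGGCGG, which are spellings of the E2F consensus. At least 1 of these words stood in the windows of 6 members, E2F1, E2F2, E2F3, E2F7, MYBL2 and RBL1. All words found there stood upstream of the RefSeq start. The RefSeq starts of MYBL2 and E2F1 lie 95 and 19 bases inside the gene positions given below. The MYBL2 word and the E2F1 word TTGGCGC thus lie within those positions. Of 35116 promoters in the table, 23.7% held such a word and 20.2% held one upstream. These shares, and those of other words below, count single windows. A member was counted if any of its windows held the word, and E2F3 and RBL2 had 2 windows each. Below, capitals mark the E2F words, each stretch reads 5′ to 3′ on the gene's own strand, and a capital run that starts with GC is a word on the opposite strand. The longer first run of E2F1 is a pair of overlapping words, one on each strand.
E2F1, chr20:33686386-33686445, minus strand, bases -60 to -1: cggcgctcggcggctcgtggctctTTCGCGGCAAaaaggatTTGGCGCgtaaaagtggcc
E2F2, chr1:23531234-23531293, minus strand, bases -60 to -1: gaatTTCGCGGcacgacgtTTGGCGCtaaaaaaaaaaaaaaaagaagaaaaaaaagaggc
E2F3, chr6:20401819-20401878, plus strand, bases -60 to -1: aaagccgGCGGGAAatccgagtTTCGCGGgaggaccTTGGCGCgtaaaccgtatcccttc
RBL1, chr20:37095998-37096057, minus strand, bases -60 to -1: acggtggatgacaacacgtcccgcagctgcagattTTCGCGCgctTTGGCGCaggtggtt
MYBL2, chr20:43667064-43667093, plus strand, bases -50 to -21: ccgacgcgcTTGGCGGgagatagaaaagtg
E2F7, chr12:77065690-77065749, minus strand, bases -180 to -121: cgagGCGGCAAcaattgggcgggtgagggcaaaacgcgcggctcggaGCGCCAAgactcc

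In E2F1, E2F2, E2F3 and RBL1 a word TTCGCGC or TTCGCGG was followed on the same strand by TTGGCGC, with 17, 15, 14 and 10 bases between their first letters. Once these stretches had been seen, all 35116 promoters were searched for that pair within 25 bases. The search took this order on the gene's own strand only, so pairs on the opposite strand were not counted. In that search 9 (0.0256%) held it, those of these 4 members among them. The pair was spelled from the members that carry it, so its rarity is a description and no test. RBL2 had no such word in either of its 2 windows, both of which lay inside the gene position given below. A match is a spelling in a window and says nothing of binding, nor does its absence. CHR words (TTTGAA or TTCGAA), at which MuvB complexes bind, stood upstream in E2F3 and, after the start, in RBL2, against 16.4% of all promoters. CCAAT stood in windows of E2F1, E2F3, E2F7 and RBL2, against 34.6% of all promoters.

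All 10 members had a mean of at least 1 FPKM over the 8 libraries and entered the test with 11864 other genes. In DMSO the highest was MYBL2, at a mean of 105.8 FPKM, and the lowest E2F2, at 4.46 FPKM. Changes below are differences of log2(FPKM + 1) between group means from limma, whose p-values were adjusted by Benjamini-Hochberg over all 11874 genes, with a threshold of 0.05, and folds are ratios of mean FPKM. In RNA from whole cultures, fewer cycling cells and less RNA per cell cannot be told apart. MKI67, a gene of proliferating cells, stood at 113%, 54.5% and 7.31% of its DMSO mean with ENZ, EPZ and Combination.

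**Figure D1:**
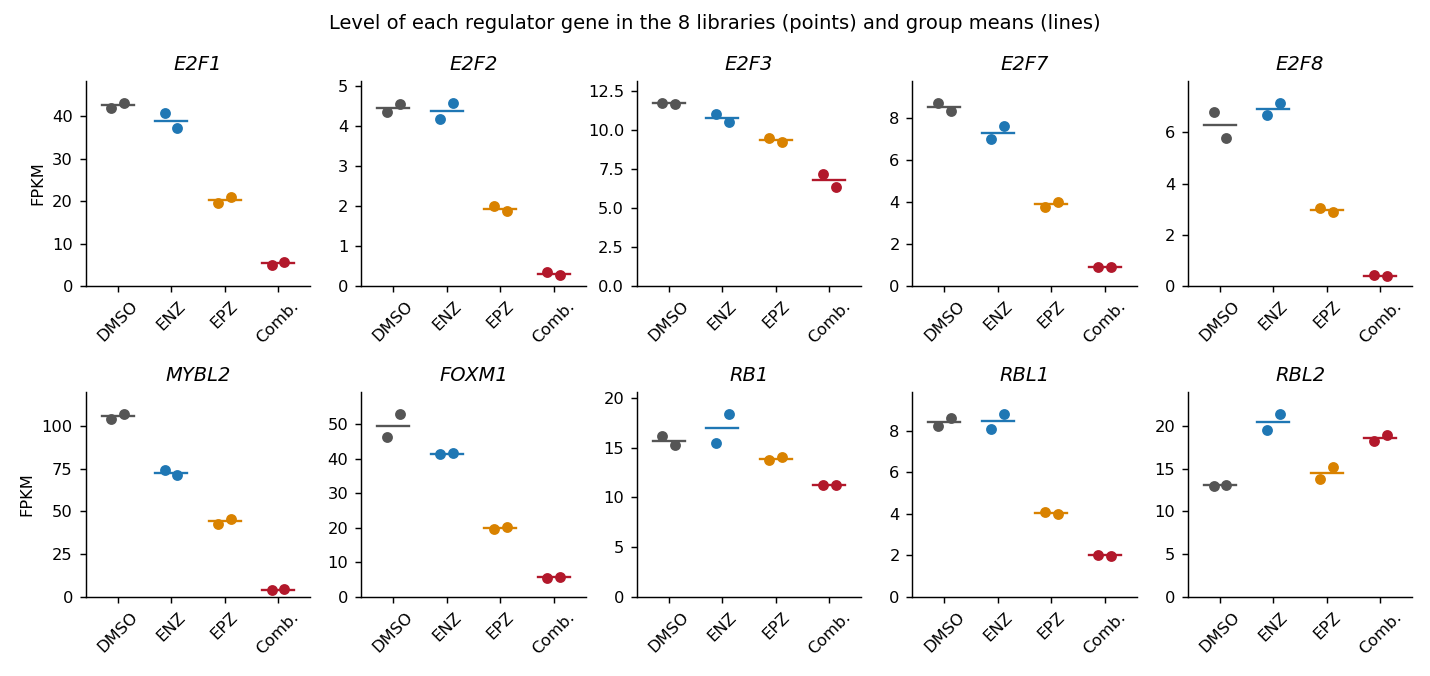
FPKM of each of the 10 genes (1 panel per gene, linear axis from 0) in the 2 libraries of each group; points are libraries and lines are group means. For 9 genes both Combination libraries lie below all DMSO libraries, while RBL2 lies above DMSO in ENZ and Combination.

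The activators E2F1, E2F2 and E2F3 fell with EPZ and fell further with Combination, E2F3 by far less than the others. E2F1 (chr20:33675683-33686404, minus strand), the activator best known as a target and partner of RB, measured 42.0 and 43.1 FPKM under DMSO, 40.6 and 37.3 with ENZ, 19.6 and 20.8 with EPZ, and 5.01 and 5.75 with Combination. The 4 groups did not overlap, and the Combination libraries were lowest by a wide margin. E2F1 changed by -1.04 (SE 0.074) with EPZ and by -2.77 (SE 0.074) with Combination, a mean 7.90-fold lower. With ENZ the change was -0.12 (95% interval -0.29 to 0.04, adjusted p = 0.177), and 0.05 after quantile normalization.

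E2F2 (chr1:23506430-23531220, minus strand), a further activator, measured 4.37 and 4.55 FPKM under DMSO, 4.20 and 4.59 with ENZ, 2.00 and 1.89 with EPZ, and 0.340 and 0.282 with Combination. DMSO and ENZ libraries overlapped, and EPZ and Combination each lay apart below them. Its change was -0.89 (SE 0.083) with EPZ and -2.06 (SE 0.083) with Combination. The Combination libraries held 34 and 24 fragments of E2F2, with 95% Poisson intervals of 23.5 to 47.5 and 15.4 to 35.7 that cover counting error only. At so low a level the added 1 FPKM shrinks the change, which was -3.48 with a pseudocount of 0.1, and the mean level was 14.3-fold lower than in DMSO. With ENZ E2F2 changed by -0.02 (95% interval -0.21 to 0.17, adjusted p = 0.856).

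E2F3 (chr6:20401906-20493715, plus strand), the third activator, measured 11.8 and 11.7 FPKM under DMSO, 11.1 and 10.5 with ENZ, 9.49 and 9.27 with EPZ, and 7.20 and 6.37 with Combination. The groups followed one another downwards without overlap, in steps that were small beside those of E2F1. E2F3 changed by -0.29 (SE 0.070, adjusted p = 0.00589) with EPZ and by -0.71 (SE 0.070, adjusted p = 6.30e-06) with Combination. Neither DMSO and ENZ (-0.11, adjusted p = 0.211) nor ENZ and EPZ (-0.18, adjusted p = 0.0514) differed past the threshold. ENZ and EPZ stayed short of it in 11 of 16 alternatives. Among those in which they passed were a filter at 5 FPKM (adjusted p = 0.0494), the replicate number as a block (0.0396) and voom on the recovered fragments (0.0209).

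The atypical repressors E2F7 and E2F8, which bind E2F sites without a DP partner and damp E2F targets late in S phase, also fell. E2F7 (chr12:77021247-77065580, minus strand) measured 8.73 and 8.35 FPKM under DMSO, 7.01 and 7.62 with ENZ, 3.79 and 4.0 with EPZ, and 0.912 and 0.894 with Combination. No groups overlapped. The change of E2F7 was -0.96 (SE 0.074) with EPZ and -2.33 (SE 0.074) with Combination, where its mean was 9.46-fold lower than in DMSO. With ENZ it passed narrowly, at -0.20 (SE 0.074, adjusted p = 0.0430). That call was kept in 5 of 16 alternatives, and leaving out either DMSO library (adjusted p = 0.196 and 0.0924), the first ENZ library (0.153), or any EPZ or Combination library (0.0571 to 0.0661) ended it.

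E2F8 (chr11:19224063-19241620, minus strand) measured 6.79 and 5.77 FPKM under DMSO, 6.67 and 7.14 with ENZ, 3.06 and 2.88 with EPZ, and 0.418 and 0.400 with Combination. The DMSO and ENZ libraries overlapped, and those of Combination, with 32 and 26 fragments, were far below the rest. E2F8 changed by -0.87 (SE 0.089) with EPZ and by -2.37 (SE 0.089) with Combination, or -3.64 with a pseudocount of 0.1. Its mean was 15.4-fold lower in Combination than in DMSO. With ENZ the change was 0.12 (95% interval -0.08 to 0.32, adjusted p = 0.269).

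MYBL2 and FOXM1, which act on genes of late S phase, G2 and mitosis, fell in all 3 treatments. MYBL2 (chr20:43667019-43716496, plus strand) measured 104 and 107 FPKM under DMSO, 74.1 and 71.1 with ENZ, 42.7 and 45.8 with EPZ, and 3.90 and 4.34 with Combination. Each group lay wholly below the one before. MYBL2 changed by -0.54 (SE 0.064, adjusted p = 9.94e-05) with ENZ, by -1.24 (SE 0.064, adjusted p = 7.03e-07) with EPZ and by -4.38 (SE 0.064, adjusted p = 6.20e-11) with Combination. The Combination mean was 25.7-fold lower than that of DMSO. On the log2(FPKM + 1) scale only RRM2, a ribonucleotide reductase subunit gene, had a lower change (-4.51) among the 11874 genes. That rank rests on the added 1 FPKM, which shrinks the falls of lower genes. As a ratio of mean FPKM, AURKB fell further than MYBL2, by 27.5-fold. With ENZ alone the change of MYBL2 shrank to -0.28 after quantile normalization and still passed.

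FOXM1 (chr12:2857681-2877155, minus strand), a forkhead factor of mitotic genes, measured 46.1 and 53.0 FPKM under DMSO, 41.3 and 41.5 with ENZ, 19.5 and 20.1 with EPZ, and 5.54 and 5.79 with Combination. The 2 DMSO libraries were further apart than those of other groups, and no groups overlapped. FOXM1 changed by -1.28 (SE 0.071) with EPZ and by -2.92 (SE 0.071) with Combination, a mean 8.74-fold lower. Its change with ENZ was -0.25 (SE 0.071, adjusted p = 0.0138), which did not pass without the second DMSO library (-0.15, adjusted p = 0.150) or after quantile normalization (-0.05, adjusted p = 0.566). Of its exonic bases 15.9% also lie in exons of ITFG2 on the other strand, a gene at 6.2 FPKM or less here, and no source used here gives whether counting used the strand.

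The 3 pocket protein genes went separate ways. RB1 (chr13:48303726-48599436, plus strand), the retinoblastoma tumour suppressor gene, measured 16.1 and 15.2 FPKM under DMSO, 15.4 and 18.4 with ENZ, 13.7 and 14.1 with EPZ, and 11.2 and 11.3 with Combination. ENZ and DMSO overlapped, and Combination was lowest. RB1 changed by -0.44 (SE 0.080, adjusted p = 5.41e-04) with Combination, and by -0.28 after median-of-ratios scaling and -0.20 with quantile normalization. Its changes with ENZ (0.10, adjusted p = 0.315) and EPZ (-0.16, adjusted p = 0.112) did not pass. Without the first ENZ library the RB1 change with ENZ was 0.22. With EPZ RB1 stayed short of the threshold in 12 of 16 alternatives. The alternatives in which it passed included only the compared groups (adjusted p = 0.031) and voom on the recovered fragments (adjusted p = 0.0486).

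RBL1 (chr20:36996349-37095995, minus strand), which encodes p107, measured 8.24 and 8.59 FPKM under DMSO, 8.09 and 8.81 with ENZ, 4.10 and 4.0 with EPZ, and 2.03 and 1.97 with Combination. ENZ bracketed DMSO, and the other groups lay below without overlap. RBL1 changed by -0.90 (SE 0.072) with EPZ and by -1.65 (SE 0.072) with Combination, a mean 4.21-fold lower. The change with ENZ was 0.00 (95% interval -0.16 to 0.16, adjusted p = 0.964).

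RBL2 (chr16:53433977-53491649, plus strand), which encodes p130, the pocket protein of the DREAM complex, measured 13.0 and 13.1 FPKM under DMSO, 19.6 and 21.4 with ENZ, 13.7 and 15.2 with EPZ, and 18.3 and 18.9 with Combination. It was highest in ENZ, next in Combination, and no groups overlapped. RBL2 rose by 0.61 (SE 0.070, adjusted p = 8.23e-05) with ENZ and by 0.48 (SE 0.070, adjusted p = 1.23e-04) with Combination. With EPZ the change was 0.14 (95% interval -0.02 to 0.29, adjusted p = 0.125), which passed after median-of-ratios scaling (0.19, adjusted p = 0.0377) and with quantile normalization (0.20, adjusted p = 0.0357). AKTIP, on the other strand at up to 10.6 FPKM, shares 8.33% of the exonic bases of RBL2.

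**Figure D2:**
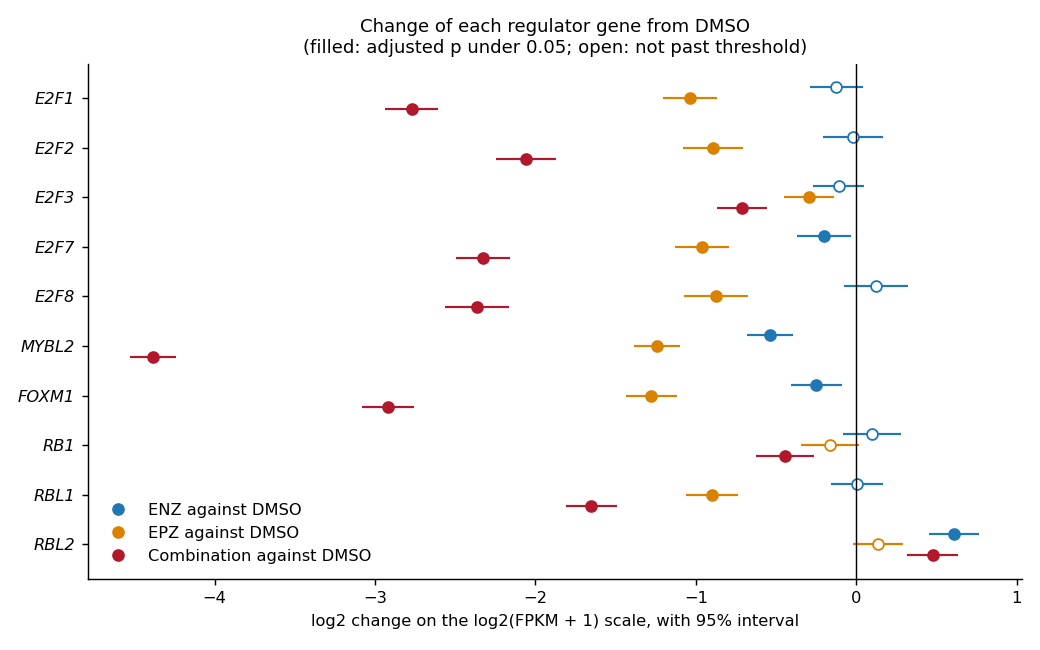
Log2 change of each gene from DMSO with ENZ, EPZ and Combination, on the log2(FPKM + 1) scale, with 95% intervals from limma; filled points passed an adjusted p of 0.05. Combination changes run from -4.38 (MYBL2) to 0.48 (RBL2), and with ENZ the changes past the threshold are those of MYBL2, FOXM1, E2F7 and RBL2.

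With ENZ the members' share of calls was not above that of all genes. Of 10 members 1 was higher and 3 were lower, where 27.9% of all tested genes were higher and 28.8% lower. ENZ and DMSO libraries did not overlap for 6 members, 1 higher and 5 lower, against 38.7% and 38.4% of all genes. The median change of the members was -0.06, against 0.00 for all genes.

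With EPZ, 8 of 10 members were lower and 0 higher, against 32.4% lower and 23.4% higher of all tested genes. Here and below, where 0 members are given as higher, the main limma fit also found 0 higher at an unadjusted p under 0.05. Voom on the recovered fragments called 0 as well. With EPZ, RBL2 was called higher after median-of-ratios scaling (0.19, adjusted p = 0.0377) and with quantile normalization (0.20, adjusted p = 0.0357). The libraries did not overlap for 9 lower members and 1 higher, where 46% and 36.1% of all genes did so. The median change was -0.90, against -0.05 for all genes. E2F1, MYBL2 and FOXM1 fell by at least 1 on the log2(FPKM + 1) scale, as did 1.6% of all genes. That count rests on the added 1 FPKM: as ratios of mean FPKM, E2F2 was 2.30-fold lower with EPZ, E2F7 2.19-fold, E2F8 2.11-fold, E2F1 2.10-fold and RBL1 2.08-fold, beside 2.5-fold for FOXM1 and 2.39-fold for MYBL2.

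With Combination, 9 of 10 members were lower and 1, RBL2, was higher, against 47.4% and 33.3% of all tested genes, and those 9 and 1 did not overlap DMSO, against 52.7% and 38.2%. Most genes passed the threshold with Combination, so sizes are given beside these counts. The median change was -2.19, against -0.15 for all genes, and 7 members (E2F1, E2F2, E2F7, E2F8, MYBL2, FOXM1 and RBL1) fell by at least 1, as did 16% of all genes. Median-of-ratios scaling moved the median of all genes with Combination from -0.15 to 0.00, and the share of higher among called genes from 41.3% to 50.02%. It moved MYBL2 to -4.23, FOXM1 to -2.76, E2F1 to -2.61 and RBL2 to 0.65. No member's call in Combination against DMSO was lost in the alternatives that tested it, E2F2 and E2F8 not being tested with a filter at a mean of 5 FPKM.

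Directly between the single agents, 9 members were lower in EPZ than in ENZ and 0 higher, against 30.6% and 20% of all tested genes. RBL2 was among them at -0.47 (SE 0.070), and the smallest change past the threshold was that of RB1 at -0.26 (SE 0.080, adjusted p = 0.0217). The RB1 call was lost under 6 of 16 alternatives, among them leaving out the second ENZ library (-0.14, adjusted p = 0.0953) or the first (adjusted p = 0.105) or the second EPZ library (adjusted p = 0.0693).

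Combination was also set against each single agent. Against ENZ 9 members were lower and 0 higher, where 45.5% of all tested genes were lower and 25.3% higher. MYBL2 was 17.6-fold lower, E2F8 16.9-fold and E2F2 14.1-fold. RBL2 did not pass against ENZ (-0.13, adjusted p = 0.117), was at 0.05 when scaled by median of ratios and at 0.15 with quantile normalization, and passed without the first ENZ library (-0.20, adjusted p = 0.0391). Against EPZ 9 were lower and RBL2 was higher (0.34, SE 0.070), where 43.7% of all genes were lower and 29.2% higher. MYBL2 was 10.7-fold lower than with EPZ, E2F8 7.26-fold and E2F2 6.25-fold, but RB1 was 1.23-fold lower, at -0.28 (SE 0.080, adjusted p = 0.0102). The RB1 call did not hold with median-of-ratios scaling (-0.17, adjusted p = 0.0832), with quantile normalization (-0.13, adjusted p = 0.168) or without the second EPZ library (-0.26, adjusted p = 0.0584).

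The interaction term, the Combination mean plus the DMSO mean less both single-agent means on the log2 scale, asks whether the agents together changed a gene by more or less than their separate changes add up to. The 4 comparisons behind it share libraries, so it is not further evidence beside them. It was negative and past the threshold for 9 members and positive for 0, against 29.6% and 9.99% of all tested genes. The median was -1.15 for members and -0.12 for all genes, which median-of-ratios scaling moved to 0.00. At -2.61 (SE 0.090, adjusted p = 3.88e-07) MYBL2 was number 5 from the lowest of 11874 genes on the log2(FPKM + 1) scale. E2F8 (-1.62, SE 0.13), E2F1 (-1.61, SE 0.10), FOXM1 (-1.39, SE 0.10), E2F7 (-1.16, SE 0.11), E2F2 (-1.15, SE 0.12) and RBL1 (-0.76, SE 0.10) kept this call in the alternatives that tested them, E2F2 and E2F8 not being tested with a filter at a mean of 5 FPKM. With a pseudocount of 0.1 the terms were -2.73 for E2F8, -2.29 for E2F2, -1.77 for E2F7, -1.77 for E2F1 and -1.53 for FOXM1, so the order of these genes depends on the added value.

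In levels, the separate changes of MYBL2 would add up to 30.2 FPKM, 7.33 times the observed mean of 4.12. For E2F1 the added level was 18.5 FPKM and the observed one 5.38, for E2F8 3.32 and 0.409, and for FOXM1 16.5 and 5.67. For E2F3 and RB1 the gap was small: added levels of 8.63 and 14.9 FPKM lay beside observed means of 6.79 and 11.3. Their interaction terms, -0.31 (adjusted p = 0.0334) for E2F3 and -0.38 (adjusted p = 0.0249) for RB1, did not pass with median-of-ratios scaling (adjusted p = 0.186 and 0.105) or quantile normalization (0.0781 and 0.0787). E2F3 also lost it without the first or second DMSO library (0.0829 and 0.0895), the first ENZ library (0.0575), either EPZ library (0.0994 and 0.0826) or the second Combination library (0.122). RB1 lost it without the second DMSO library (0.0839), either EPZ library (0.0557 and 0.0846) or either Combination library (0.0655 and 0.0590). RBL2 did not pass (-0.27, adjusted p = 0.0558), nor did it in 10 of 15 alternatives. Alternatives in which RBL2 passed included a filter at 5 FPKM (adjusted p = 0.0441), the replicate number as a block (0.0327) and voom on the recovered fragments (0.0225). The RBL2 term was -0.33 without the first ENZ library and -0.34 without the first EPZ library.

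**Figure D3:**
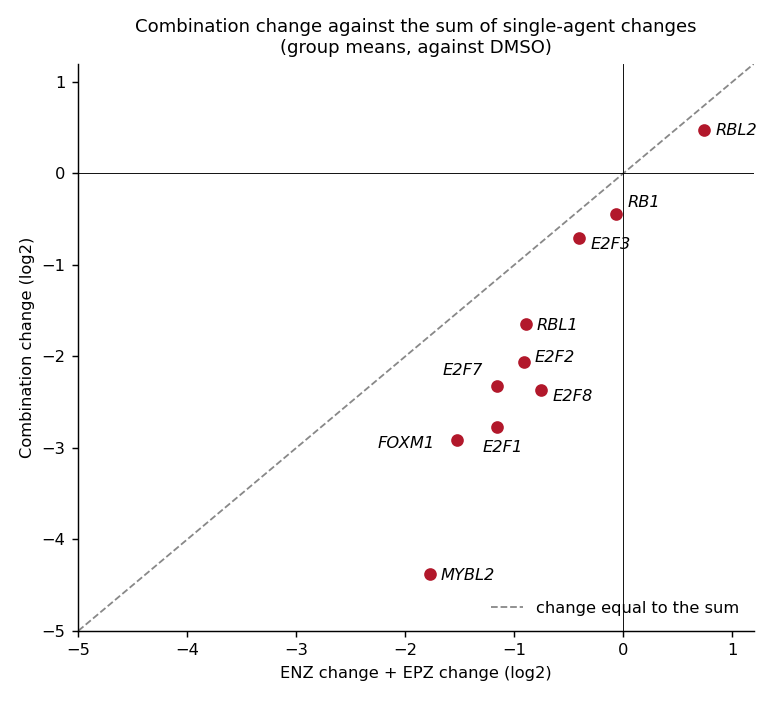
Combination change (vertical) against the sum of the ENZ and EPZ changes (horizontal) for the 10 genes, all from DMSO on the log2(FPKM + 1) scale; the dashed line marks equality. All 10 genes lie below the line, MYBL2 farthest (-4.38 against -1.78) and RBL2 nearest (0.48 against 0.75).

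Because the members fell to different degrees, their mRNA makeup changed. E2F1 made up 72.4% ± 0.271 (SD, n = 2) of the summed FPKM of the 3 activators under DMSO, 71.9% ± 1.13 with ENZ, 64.1% ± 1.44 with EPZ and 43.1% ± 4.55 in Combination. The share of E2F3 went from 20.0% ± 0.379 in DMSO to 54.4% ± 4.25 in Combination, while its own level fell. E2F2 made up 7.60% ± 0.107 in DMSO and 2.49% ± 0.302 in Combination. The summed level of the 3 activators was 58.7 FPKM under DMSO, 54.2 with ENZ, 31.6 with EPZ and 12.5 with Combination.

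The pocket protein genes were more even in sum, at 37.2 FPKM under DMSO, 45.9 with ENZ, 32.4 with EPZ and 31.8 with Combination. The share of RBL2 was higher and that of RBL1 lower than in DMSO in each treatment, and that of RB1 was lower with ENZ and Combination. RBL1 made up 22.7% ± 0.856 of the 3 under DMSO, 18.4% ± 0.463 with ENZ, 12.5% ± 0.703 with EPZ and 6.28% ± 0.238 in Combination. RBL2 made up 35.2% ± 0.482, 44.7% ± 0.953, 44.6% ± 1.52 and 58.4% ± 0.626. RB1 made up 42.2% ± 1.34, 36.8% ± 1.42, 42.9% ± 0.821 and 35.4% ± 0.388. The ratio of RBL2 to RBL1 was 1.55 under DMSO, 2.42 with ENZ, 3.58 with EPZ and 9.30 in Combination, in no pair of groups with overlapping libraries.

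Other pairs of members shifted too. The ratio of E2F1 to RB1 was 2.72 under DMSO, 2.33 with ENZ, 1.46 with EPZ and 0.478 in Combination, so RB1 mRNA was the more abundant per length only in Combination. MYBL2 exceeded FOXM1 by 2.14 times in DMSO, 1.75 in ENZ and 2.23 in EPZ, and stood at 0.726 of it in Combination. The 3 activators summed to 3.97 times the atypical pair E2F7 and E2F8 under DMSO, 3.82 with ENZ, 4.60 with EPZ and 9.51 in Combination. With 2 libraries against 2, an exact permutation test of such a ratio cannot give a two-sided p under 0.333, so these ratios are given without a test.

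**Figure D4:**
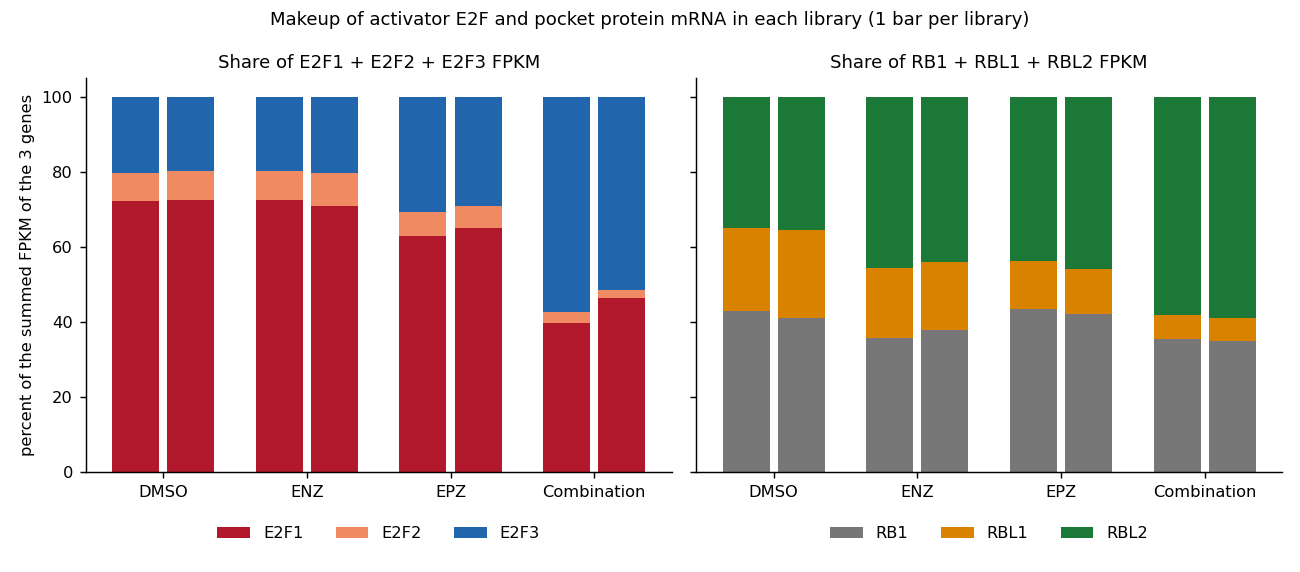
Share of each activator (left) and pocket protein gene (right) in the summed FPKM of its 3 genes, in percent, 1 stacked bar per library. In the Combination bars E2F3 takes the largest share of the activators (51.4% and 57.4%) and RBL2 the largest of the pocket protein genes (57.9% and 58.8%).

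The other genes of the pathway were taken from 7 lists, chosen by known function with earlier results of these data known. Their counts stand beside those of all tested genes, of which 28.8% were lower and 27.9% higher with ENZ, 32.4% and 23.4% with EPZ, and 47.4% and 33.3% with Combination. Among 5 further E2F and DP genes, 3 were lower and 0 higher with ENZ, 3 and 0 with EPZ, and 4 and 1 with Combination, with a median of -0.64 there. TFDP1, the main DNA-binding partner of E2F factors, had means of 38.0, 27.2, 18.1 and 10.8 FPKM for DMSO, ENZ, EPZ and Combination and fell by 1.72 (SE 0.062) with Combination. TFDP2, the other partner, rose by 0.56 (SE 0.064), from 5.32 to 8.31 FPKM. The repressive E2Fs changed by -0.51 (E2F4, the partner of p130, SE 0.065), -0.64 (E2F5, SE 0.099) and -0.79 (E2F6, which works without pocket proteins, SE 0.084). With ENZ the genes past the threshold changed by -0.47 (TFDP1), -0.30 (E2F4) and -0.38 (E2F5), and with EPZ by -1.03 (TFDP1), -0.25 (E2F4) and -0.25 (E2F6).

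Of 8 genes of MuvB and its partners, 6 were lower and 2 higher with Combination, with a median of -0.75. LIN9 changed by -1.34 (SE 0.12), the MYB relative MYBL1 by -1.25 (SE 0.12), MYB by -0.91 (SE 0.12), LIN54, the DNA-binding subunit, by -0.82 (SE 0.083), LIN52 by -0.68 (SE 0.080) and RBBP4 by -0.62 (SE 0.068). LIN37 rose by 0.51 (SE 0.079), and DYRK1A, the kinase gene whose product prompts DREAM assembly, rose by 0.37 (SE 0.080). MYBL1 had means of 2.48 FPKM in DMSO and 0.462 in Combination, a 5.37-fold difference beside the 25.7-fold of MYBL2. With EPZ 6 genes of the list were lower and 1 higher. With ENZ 1 was lower (MYB) and 1 higher (DYRK1A), and these ENZ shares were below those of all genes.

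Of 10 tested genes for the cyclins and kinases that act on RB and for their regulators and partners (CDC25A, SKP2, CKS1B and CKS2), 9 were lower with Combination and 0 higher. The phosphatase gene CDC25A changed by -2.79 (SE 0.078), CCND3 by -1.90 (SE 0.068), CCNE2 by -1.90 (SE 0.068) and CDK4 by -1.77 (SE 0.054), the last from 90.5 to 25.9 FPKM. The exception was cyclin D1 (CCND1), named after its values were seen, at 0.10 (SE 0.052, adjusted p = 0.0874), which with EPZ rose by 0.41 (SE 0.052). CCND2 and CDK6 were below the expression filter and were not tested. With EPZ 9 were lower and 1 higher, and with ENZ 7 and 1, the count of higher genes with ENZ being 0 with the libraries scaled by median of ratios and 3 with quantile normalization.

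Of 5 tested kinase inhibitor genes, 4 were lower and 1 higher with Combination. CDKN2C, which encodes p18, changed by -1.70 (SE 0.069), CDKN2D by -1.16 (SE 0.12) and CDKN1B, which encodes p27, by -0.54 (SE 0.096). CDKN1A, which encodes p21, had means of 33.1 FPKM under DMSO, 21.6 with ENZ, 52.5 with EPZ and 40.5 with Combination. It fell by 0.59 (SE 0.062) with ENZ and rose by 0.65 (SE 0.062) with EPZ and rose by 0.28 (SE 0.062) with Combination. CDKN1C and CDKN2B were below the filter. Of 10 corepressor genes that work with pocket proteins or E2F6, 7 were lower and 3 higher with Combination. The histone methyltransferase gene SUV39H1 changed by -1.81 (SE 0.075), CBX3 by -1.52 (SE 0.065), HDAC2 by -1.41 (SE 0.072) and RBBP7 by -1.19 (SE 0.056). The 3 higher, named after their values were seen, were SIN3B at 0.86 (SE 0.094), ARID4A at 0.72 (SE 0.11) and MGA at 0.32 (SE 0.075).

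All 36 G1/S genes that E2F factors are known to act on were lower with EPZ (median -1.04) and with Combination (median -2.56), and 0 were higher. RRM2 fell from 101.5 to 3.51 FPKM with Combination, and CDC45 changed by -3.77 (SE 0.062), the licensing factor gene CDT1 by -3.48 (SE 0.058) and FEN1 by -3.16 (SE 0.058). With ENZ 20 of 36 were lower, with a median of -0.21, but 7 were lower after quantile normalization and 11 without the second DMSO library. MCM7 changed by -0.46 (SE 0.059) and CDT1 by -0.39 (SE 0.058) with ENZ.

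All 32 G2/M genes that B-MYB and FOXM1 are known to act on were lower with EPZ (median -1.13) and with Combination (median -3.14). The Aurora kinase gene AURKB changed by -4.30 (SE 0.074) with Combination, PLK1 by -4.07 (SE 0.064), CDC20 by -4.06 (SE 0.052) and BIRC5, which encodes survivin, by -4.02 (SE 0.066). With ENZ 22 of 32 were lower and none higher, with a median of -0.29, and PLK1 fell by 0.97 (SE 0.064), from 90.4 to 45.7 FPKM. The interaction was negative and past the threshold for all 36 G1/S genes and for 31 of 32 G2/M genes, with medians of -1.34 and -1.56. EZH2, the target of EPZ and itself an E2F target gene, measured 26.2 and 25.4 FPKM under DMSO, 23.4 and 26.3 with ENZ, 16.1 and 14.7 with EPZ, and 6.47 and 6.28 with Combination.

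**Figure D5:**
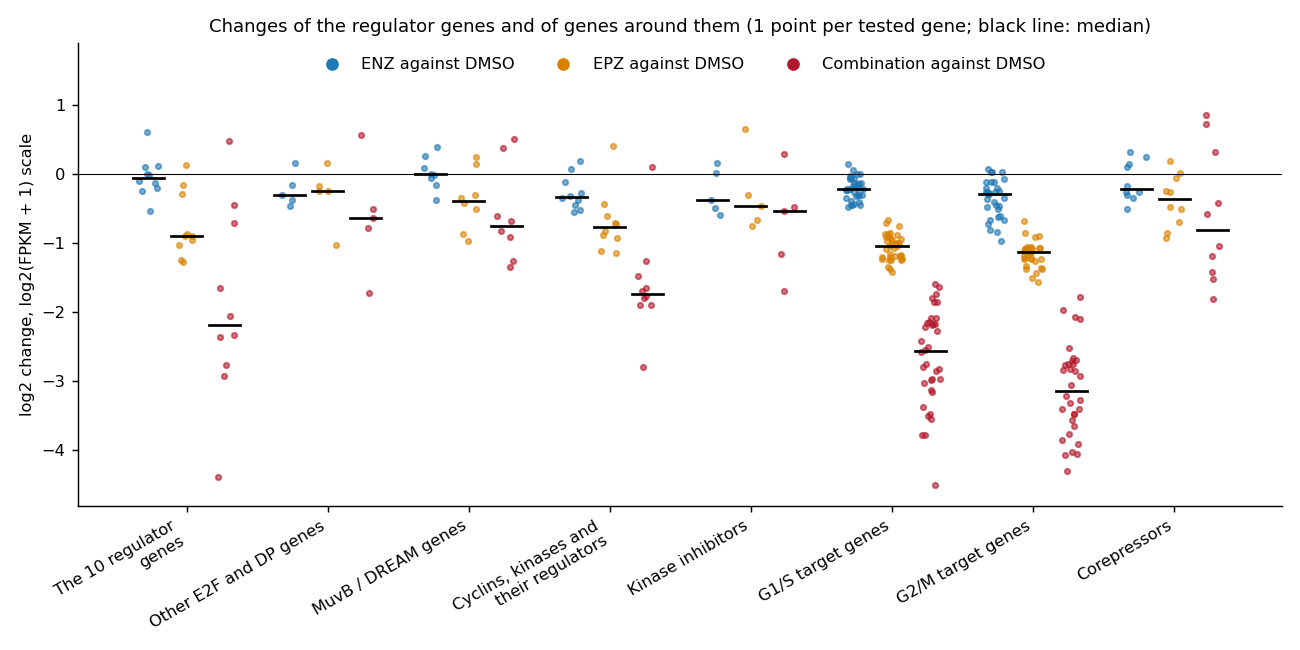
Log2 changes from DMSO on the log2(FPKM + 1) scale for the 10 regulator genes and the tested genes of 7 pathway lists, 1 point per gene, with black lines at the medians. With Combination the medians are -2.19 for the regulators, -2.56 for G1/S targets and -3.14 for G2/M targets, and between -1.73 and -0.54 for the other lists.

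Likeness in pattern was measured as the root-mean-square distance between profiles of the 4 group means of log2(FPKM + 1), each centred on its own mean, as a description over 4 points. Within the members the closest pair was E2F1 and FOXM1 (0.086), followed by E2F3 and RB1 (0.10) and by E2F2 and E2F7 (0.102), and the farthest was MYBL2 and RBL2 (1.82). Among tested protein-coding genes the nearest to E2F1 were KIF23 (0.021), SLC29A1 (0.027), KIF11 (0.031), ESPL1 (0.043) and NEK2 (0.045). Of these, all but the nucleoside transporter gene SLC29A1 act in mitosis. The added 1 FPKM shrinks the falls of low genes, so near profiles can hide unlike folds. NEK2 went from a mean of 13.2 FPKM in DMSO to 0.962 in Combination, and E2F1 from 42.5 to 5.38. The nearest to FOXM1 were MCM2 (0.046), SPAG5 (0.050), UHRF1 (0.051), GINS1 (0.061) and ORC1 (0.065). UHRF1 went from 10.6 FPKM in DMSO to 0.485 in Combination, and FOXM1 from 49.5 to 5.67.

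MYBL2 had no neighbour as near, its closest being RRM2 (0.087), AURKB (0.16), CDC20 (0.19), BIRC5 (0.20) and CDK1 (0.22). The closest to RBL2 were PFN2 (0.014), TEX9 (0.019), TMCO3 (0.019), FLOT2 (0.020) and NOTCH2 (0.021), which were higher in ENZ and Combination than in DMSO. PFN2, the profilin 2 gene, had means of 32.3, 50.5, 35.1 and 44.9 FPKM for DMSO, ENZ, EPZ and Combination, and NOTCH2, a receptor gene, 11.1, 17.0, 12.5 and 15.7.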

How the data were processed

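The authors deposited 1 table of FPKM values, 1 column per library for 8 libraries. Per the submitters' processing notes STAR and the hg38 build were used. Versions, the annotation, the tool that counted fragments and whether it used the strand are not given in these sources. Of 26475 rows, 26443 carry values, and 28 symbols had been turned into dates. FPKM holds no totals, but the steps between low values show what 1 fragment is worth, which gave whole fragments (within 0.02) for 11873 of 11874 tested genes. Groups and replicate numbers came from the labels.

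Genes whose mean over the libraries reached 1 FPKM were fitted on the log2(FPKM + 1) scale with limma 3.58.1 in R 4.3.3, with all 4 groups sharing the spread (5.47 prior and 4 residual degrees of freedom) and Benjamini-Hochberg adjustment within each of 7 comparisons. Figures and depth used Python 3.11.15, pandas 2.3.3, numpy 2.4.6 and matplotlib 3.10.9. Positions are from GENCODE and promoters from RefSeq.

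The members and the lists were chosen with earlier results of these data known. Named genes are all members, all genes of the E2F and DP list and of the MuvB list, EZH2 and MKI67. From each other list come up to 4 genes with the smallest p in each comparison with DMSO. The 5 protein-coding genes nearest in pattern to E2F1, MYBL2, FOXM1 and RBL2 are named too. Some genes that these rules take are left out for length.

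Alternatives were a pseudocount of 0.1, no filter, a filter at 5 FPKM, quantile normalization, scaling by median of ratios, only the compared groups, the replicate number as a block, each library left out in turn, and, chosen after seeing the data, limma's voom on the recovered fragments.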

Additional observations from a re-analysis of the deposited data

Results flagged for a closer look

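A test of the difference itself (the interaction term in limma, at an adjusted p of 0.05) was passed by 9 of the 10 genes, whose change with ENZ differed between cells with and without EPZ. On the log2(FPKM + 1) scale the difference was -2.61 for MYBL2, -1.62 for E2F8, -1.61 for E2F1, -1.39 for FOXM1, -1.16 for E2F7, -1.15 for E2F2, -0.755 for RBL1, -0.38 for RB1 and -0.308 for E2F3. E2F3 and RB1 did not pass with median-of-ratios scaling, with quantile normalization, with no filter on low values or without the second DMSO, EPZ or Combination library, each of which left 7 genes called, nor without the first EPZ library. E2F3 also did not pass without the first DMSO or ENZ library, and RB1 without the first Combination library. With a pseudocount of 0.1 the value was -2.29 for E2F2 and -2.73 for E2F8. Against EPZ alone, Combination was lower for all 9, the RB1 call being lost with median-of-ratios scaling, with quantile normalization and without the second EPZ library. ENZ alone lowered MYBL2, FOXM1 and E2F7 past the threshold. The E2F7 call was kept in 5 of 16 alternatives, and that of FOXM1 was lost after quantile normalization (-0.05, adjusted p = 0.566) and without the second DMSO library (-0.15, adjusted p = 0.150).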

How the results depend on the processing

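Of the member changes recomputed under the alternatives, 1039 kept their call (higher, lower or not past the threshold), 39 calls were lost, 18 were gained and 0 called changes turned. The number of members called stayed within 1.5 times the value reported in 110 recomputed counts and not in 1, for ENZ against DMSO, with 4 members called and 2 to 4 when a library was left out, the 2 without the second DMSO library. Leaving out a library gave 8 to 9 calls for EPZ, 10 to 10 for Combination against DMSO and 7 to 9 for the interaction. Where a group was left with 1 library, that library was assumed to vary like the others.

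With the replicate number as a block, members called numbered 4 for ENZ, 8 for EPZ, 10 for Combination against DMSO, 9 against ENZ, 10 against EPZ, 10 for EPZ against ENZ (9 without the block) and 10 for the interaction (9 without it). The labels do not say whether the numbers pair the samples, and low correlations cannot show that they do not. Differences between the 2 libraries of a group correlated across genes at r = -0.0153 to 0.109 over the 6 pairs of groups. Of these correlations 5 were above 0.

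A pseudocount of 0.1 and voom gave larger Combination changes for the lowest genes (E2F2 -3.48 and -3.82, E2F8 -3.64 and -3.90, E2F7 -3.11 and -3.23). Depth limits E2F2 and E2F8 in Combination, where fragments numbered 34 or fewer per library.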
